A study of Homo sapiens with 6 samples.

Results

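The genes described here are the classical MHC class II chains HLA-DRA, HLA-DRB1, HLA-DPA1, HLA-DPB1, HLA-DQA1 and HLA-DQB1, the class II loading factor genes HLA-DMA and HLA-DMB, the invariant chain gene CD74, and CIITA, the gene of the class II transactivator. They are 10 of the 58243 Ensembl gene identifiers in the deposited counts, and each symbol matched 1 identifier. They were selected on 2 measured values, the level in empty vector cells and the difference between PRL3 and empty vector cells, so those levels and differences are given as a description, with no test. The cells were A375, an established human melanoma line, which had been stably transfected with an empty vector (EV, libraries B1, B2 and B3) or with a plasmid that expresses HA-tagged human PRL3 (PRL3, libraries B9, B10 and B11). PRL3, encoded by PTP4A3, is a phosphatase that the study examined as a regulator of melanocyte regeneration and of transcription in melanoma. Both lines were kept in 100 µg/ml hygromycin B, and both were pulsed with 4-thiouridine (4sU) for 20 min at 500 µM, which marks newly made RNA for pull-down and sequencing. The labels do not say whether a line is a clone or a pool, nor whether the 3 libraries of a group came from separate cultures, so the errors below measure the spread between libraries. Clonal or culture differences between the lines and the expression of PRL3 cannot be told apart in this design.

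MHC class II molecules are pairs of an alpha and a beta chain that show peptides from the endosomal pathway to CD4+ T cells. The invariant chain CD74 guides newly made class II to endosomes and blocks its groove, and HLA-DM then swaps the last fragment of CD74 for a peptide. Class II genes share a promoter module of X and Y boxes, which RFX, CREB family and NF-Y proteins bind and on which the coactivator CIITA assembles. CIITA does not bind DNA by itself, and it is made constitutively in B cells and dendritic cells and after interferon gamma in many other cells. Some melanomas make class II without added interferon.

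The X-Y module is printed here because it is the part of these promoters on which CIITA acts. RefSeq windows from 250 bases before to 50 bases after the start site (GRCh38.p14, 300 bases) matched 8 of the 10 genes, and were not used for HLA-DRA and CIITA. The letters ACNGATG stood for the X box core and ATTGG for the Y box core, on either strand, and both were picked with these windows in view. They do not overlap each other as written. At least 1 X box core lay in the windows of 5 of the 8 genes and at least 1 Y box core in 7, while 7.65% and 34.6% of all 35116 windows of this length held them. An X box core followed by a Y box core on the gene's own strand, with 15 to 35 bases between their first letters, was found in HLA-DRB1, HLA-DQB1 and HLA-DMA and in 29 of the 35116 windows (0.0826%). The same pair was found in HLA-DRB5, a DR beta chain gene that belongs to the pathway lists below. The capitals below mark the X box core on the left and the Y box core on the right, 5′ to 3′ on the gene's strand, which is the minus strand of chromosome 6 in all 4. The stretches are chr6:32589865-32589948 (HLA-DRB1), chr6:32666716-32666799 (HLA-DQB1), chr6:32953147-32953231 (HLA-DMA) and chr6:32530348-32530431 (HLA-DRB5). The first letters of the cores are 29 bases apart in HLA-DRB1, HLA-DQB1 and HLA-DRB5 and 30 bases apart in HLA-DMA.
HLA-DRB1: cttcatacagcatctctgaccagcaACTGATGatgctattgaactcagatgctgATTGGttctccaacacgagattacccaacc
HLA-DQB1: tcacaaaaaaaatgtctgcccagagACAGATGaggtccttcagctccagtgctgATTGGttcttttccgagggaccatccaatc
HLA-DMA: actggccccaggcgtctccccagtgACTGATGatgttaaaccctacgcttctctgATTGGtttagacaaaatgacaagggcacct
HLA-DRB5: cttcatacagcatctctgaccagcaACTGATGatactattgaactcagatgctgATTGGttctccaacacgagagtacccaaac
These are letters of the reference genome. A375 cells can carry other HLA alleles, and a match is not evidence of binding. A gene without a match to these fixed letters is not shown to lack the box.

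The 6 libraries held 36532207 to 57952035 counts on genes. Uniquely aligned reads on no annotated exon were 28.7% to 41.1% of the total in EV and 62.8% to 69.1% in PRL3, and the TMM factors were 0.816 to 0.894 in EV and 1.12 to 1.25 in PRL3. Scaling therefore shifts every fold change between the groups, and the median log2 fold change of all 23884 genes tested was 0.11 with TMM, 0.60 with library size alone and -0.37 with all uniquely aligned reads as library size. PTP4A3 checked the labels, at 217 ± 59.4 normalised counts in EV and 24387 ± 3796 in PRL3 (SD, n = 3). A defining set of 11 leukocyte markers was summed, because leukocytes carry class II without induction. It came to 133 to 272 normalised counts in EV and 324 to 343 in PRL3. MS4A1 and TYROBP were at 0 in every library and PTPRC at no more than 12 raw counts. Most of the sum came from the 4 that could be tested, ITGAX (61 to 259 raw counts), FCER1G (6 to 116), CD14 (11 to 66) and CSF1R (12 to 54). Their log2 fold changes were 0.43, 1.24, 0.93 and -0.74. Of these 4, 0 were called, where calls took 31.6% (down) and 15.2% (up) of protein-coding genes. In normalised counts FCER1G was higher in every PRL3 library than in any EV library. Of 12 melanoma and melanocyte markers 8 were tested, 5 were lower and 1 was higher in PRL3, beside 31.6% and 15.2% of the protein-coding genes. SOX10, S100B, S100A6 and AXL were expressed in both groups but called lower in PRL3. Their log2 fold changes were -0.85, -1.38, -2.22 and -0.40. NGFR was also called lower (-1.69), and MIA was the marker called higher (0.88). MITF (0.36) and PMEL (-0.33) were not called, and MITF was higher in every PRL3 library than in any EV library. The pigment cell genes MLANA, TYR, DCT and TYRP1 were too low to test, with group means of at most 13.3 normalised counts. The part of these differences in the class II results was not tested.

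Class II RNA was found in EV cells, at levels that ran from 0.30 to 291 between genes. These levels, and all counts below, come from reads on exons. To avoid possible effects of splicing during transcription or of carried-over mRNA, the paper based its later analysis on reads from introns. The part of such effects in the levels and differences here was not tested. Levels between genes are given as RPKM, computed from the counts, the length of annotated exons and the effective library size of the 3 EV libraries. HLA-DRA, the DR alpha chain, was highest at 291 ± 31.0 (SD, n = 3), and CD74 followed at 202 ± 36.8. HLA-DRA lay above 99.0% and CD74 above 98.4% of the 14443 protein-coding genes tested, whose median was 4.54.

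HLA-DPA1, the DP alpha chain, came next at 33.4 ± 2.27, then HLA-DMA at 19.8 ± 2.69, HLA-DRB1 at 19.2 ± 5.47 and HLA-DPB1 at 10.6 ± 0.58. The EV libraries of HLA-DMA and HLA-DRB1 overlapped, so their order is not given by these data. CIITA stood at 5.22 ± 0.97, close to the median gene and above 53.4% of the genes. Below it were HLA-DQB1 at 2.45 ± 0.35 and HLA-DMB at 2.43 ± 0.08, whose libraries overlapped, and HLA-DQA1 at 0.30 ± 0.10, above only 13.0% of the genes. With the longest transcript as the length, CD74 (298) came before HLA-DRA (293), while CIITA stood at 7.33.

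**Figure D1:**
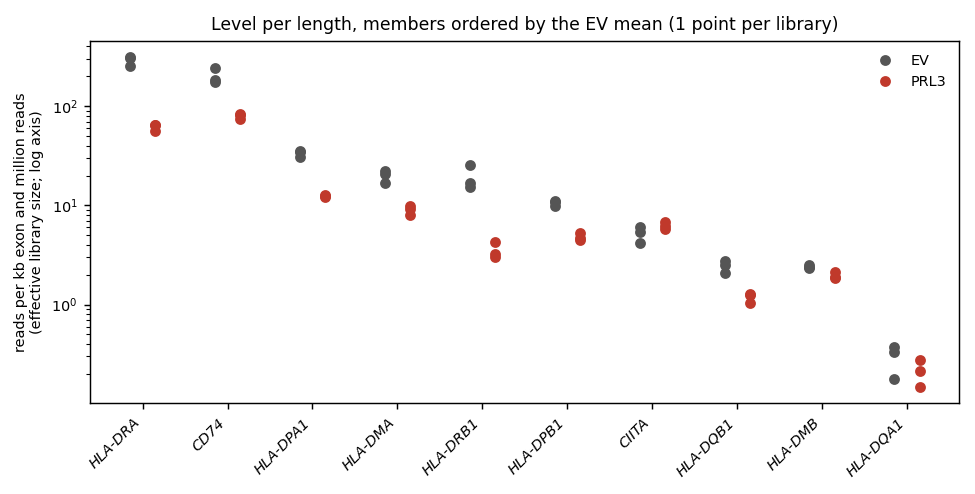
RPKM from exon length and effective library size (log axis) for each gene, ordered by the EV mean, with 1 point per library (grey EV, red PRL3). HLA-DRA and CD74 lie far above the rest in EV, CIITA stands at 5.22 on average, and HLA-DQA1 is lowest.

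The alpha and beta chains of a dimer did not have equal counts, and DQ was low as a pair. In EV libraries the DR genes gave 6.35 ± 1.38 HLA-DRA reads per HLA-DRB1 read and the DP genes 3.47 ± 0.40 HLA-DPA1 reads per HLA-DPB1 read (raw counts, SD, n = 3), where neither ratio is per length. Together the 9 genes other than CIITA took 62250, 74157 and 75881 reads in EV libraries B1, B2 and B3, which is 0.132%, 0.154% and 0.131% of the gene counts. They took 27169, 38886 and 23858 reads in PRL3 libraries B9, B10 and B11, which is 0.0744%, 0.0688% and 0.0645%. The share was smaller in each PRL3 library than in any EV library.

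Most of the class II genes were lower in PRL3 cells, and CIITA was not. In the fit across all genes, 7 of the 10 genes passed an adjusted p of 0.05 as lower and 0 as higher, where 22.7% of all 23884 genes tested were called lower and 20.0% higher, and 31.6% and 15.2% of the 14443 protein-coding genes. This contrast chose the genes, so nothing is read from the count. All 10 genes passed the filter on low counts. The median log2 fold change of the 10 was -1.14, beside 0.11 over all genes tested. With library size alone the calls among all genes turned to 3078 lower and 9514 higher, with all uniquely aligned reads to 8525 and 1912, and with upper-quartile scaling to 4475 and 6353, against 5426 and 4783 with TMM. Among the 10 genes, library size alone gave 7 lower and 1 higher, the higher one being CIITA. Fewer cells that make class II RNA and less of it per cell cannot be told apart in bulk libraries.

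The DR chains showed the widest gap. HLA-DRA (ENSG00000204287, chr6:32439878-32445046, plus strand), which encodes the alpha chain shared by all DR dimers, had 18279, 17867 and 14947 normalised counts in EV libraries B1, B2 and B3. In PRL3 libraries B9, B10 and B11 it had 3786, 3793 and 3276. Every PRL3 library was below every EV library, as for 26.6% of all genes tested (29.7% had every PRL3 library above), and the group means were 17031 ± 1816 and 3618 ± 296 (SD, n = 3), a log2 fold change of -2.23 ± 0.16 (standard error here and below). HLA-DRB1 (ENSG00000196126, chr6:32577902-32589848, minus strand), the main DR beta chain gene whose X-Y stretch is printed above, had 2425, 3698 and 2238 in EV and 469, 616 and 441 in PRL3. The groups did not overlap, and the log2 fold change was -2.45 ± 0.22. EV library B2 was the highest of its group. HLA-DRB1 shares near-identical sequence with other DR beta genes and varies between haplotypes, so its count is uncertain.

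The DP chains moved less far than DR. HLA-DPA1 (ENSG00000231389, chr6:33064569-33080775, minus strand), the DP alpha chain gene, had 9487, 9269 and 8332 normalised counts in EV libraries B1, B2 and B3 and 3353, 3477 and 3305 in PRL3 libraries B9, B10 and B11. The 3 PRL3 libraries lay close together and all under EV, and the log2 fold change was -1.42 ± 0.14. HLA-DPB1 (ENSG00000223865, chr6:33075990-33089696, plus strand), its beta chain partner, had 2452, 2673 and 2715 in EV and 1144, 1286 and 1111 in PRL3. The groups were again apart, with a log2 fold change of -1.15 ± 0.15. The DP pair lies head to head and shares 96 bases of exon on opposite strands, and the counts were taken by strand.

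The DQ chains were the lowest pair. HLA-DQB1 (ENSG00000179344, chr6:32659467-32668383, minus strand), the DQ beta chain gene, had 574, 640.1 and 477 normalised counts in EV and 238, 295 and 288 in PRL3, in the same order of libraries. No PRL3 library reached the EV libraries, and the log2 fold change was -1.04 ± 0.21. HLA-DQA1 (ENSG00000196735, chr6:32628179-32647062, plus strand), the DQ alpha chain gene, had 122, 108 and 58.2 in EV and 89.6, 48.4 and 69.7 in PRL3. Its groups overlapped, from 64 to 100 raw counts in EV and 65 to 87 in PRL3, and its log2 fold change of -0.47 ± 0.41 was not called and was 0.050 with library size alone. The DQ genes have close relatives in HLA-DQA2 and HLA-DQB2 and are highly polymorphic, so reads may be split or lost.

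The genes of the invariant chain and of HLA-DM were also lower, except for HLA-DMB. CD74 (ENSG00000019582, chr5:150401637-150412969, minus strand), the invariant chain and the only one of these genes on chromosome 5, had 39337, 52018 and 37691 normalised counts in EV libraries and 17382, 17844 and 15671 in PRL3 libraries. All PRL3 libraries were under the lowest EV library, and the means of 43016 ± 7839.6 and 16966 ± 1145 gave a log2 fold change of -1.34 ± 0.17. HLA-DMA (ENSG00000204257, chr6:32948613-32969094, minus strand), the DM alpha chain gene, had 2614, 2434 and 1992 in EV and 1103, 1173 and 953 in PRL3. The groups were apart, and the log2 fold change was -1.12 ± 0.17. HLA-DMB (ENSG00000242574, chr6:32934629-32941028, minus strand), the DM beta chain gene, had 524, 514 and 547 in EV and 408, 405 and 461 in PRL3. Although no PRL3 library reached EV here either, its log2 fold change of -0.32 ± 0.19 was not called. The direction for HLA-DMB depended on the scaling, at 0.18 with library size alone and -0.79 with all uniquely aligned reads, where it was called lower.

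CIITA itself was not lower in PRL3 with TMM scaling. CIITA (ENSG00000179583, chr16:10866222-10943021, plus strand) had 4409, 5792 and 6432 normalised counts in EV libraries B1, B2 and B3 and 7220.4, 6650.3 and 6129.5 in PRL3 libraries B9, B10 and B11. The groups overlapped, since the highest EV library was above the lowest PRL3 library. The means were 5544 ± 1034 and 6667 ± 546 (SD, n = 3), a log2 fold change of 0.27 ± 0.16 that was not called. It was 0.75 with library size alone and 0.44 with protein-coding genes only, where CIITA was called higher, and -0.21 with all uniquely aligned reads as library size. The exons of CIITA share 2424 bases with DEXI on the opposite strand and 2378 bases with an unclassified transcript on its own strand, where reads would be ambiguous.

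**Figure D2:**
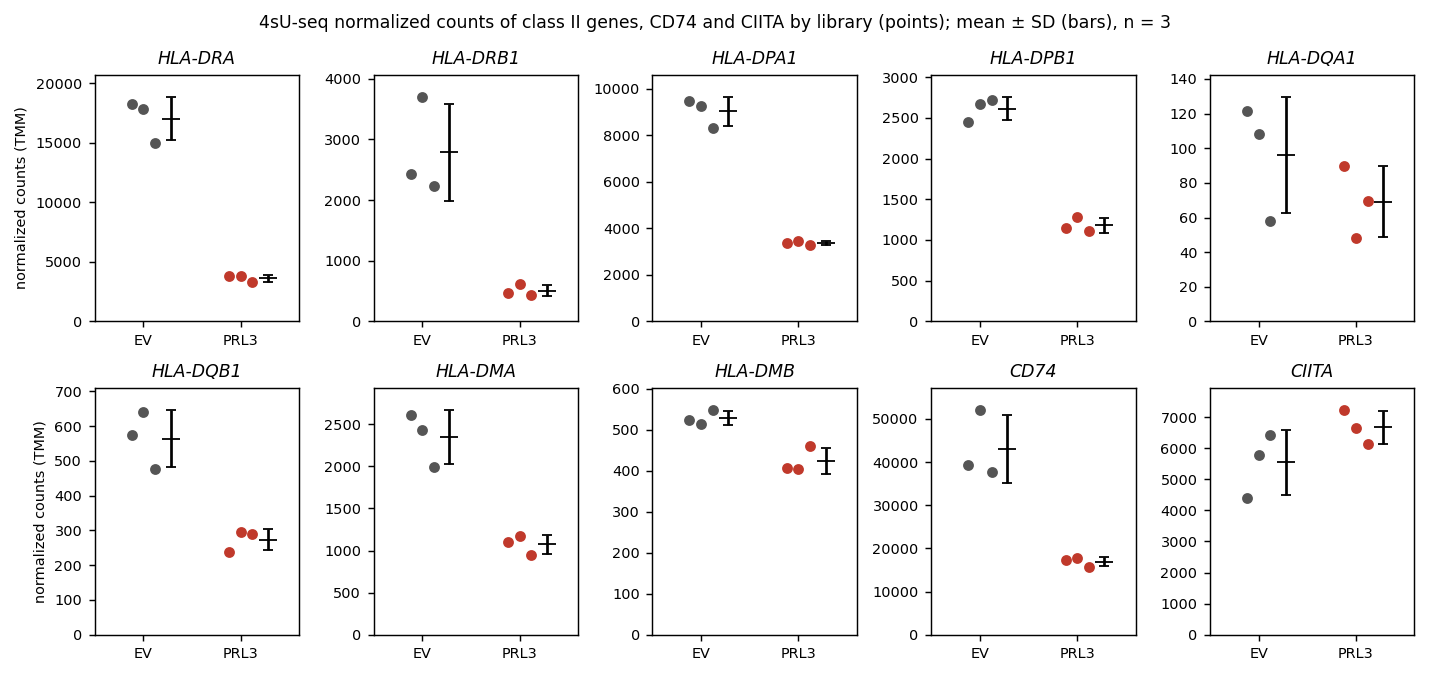
Normalised counts of the 10 genes in each library (points, from left B1, B2, B3 in EV and B9, B10, B11 in PRL3) with the group mean ± SD (n = 3), axes from 0. The PRL3 points lie below all EV points in 8 genes, while HLA-DQA1 and CIITA overlap. Of all genes tested, 26.6% had every PRL3 library below every EV library and 29.7% above. This contrast chose the genes, so nothing is read from the count.

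The 10 genes kept the same order of fold change with TMM, library size alone and all uniquely aligned reads. With library size alone the log2 fold changes of the 7 genes called lower ranged from -1.96 for HLA-DRB1 to -0.55 for HLA-DQB1, and with all uniquely aligned reads from -2.93 to -1.52. With TMM the log2 fold changes ranged between -2.33 and -2.16 for HLA-DRA and between -1.44 and -1.17 for CD74 when single libraries were left out.

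**Figure D3:**
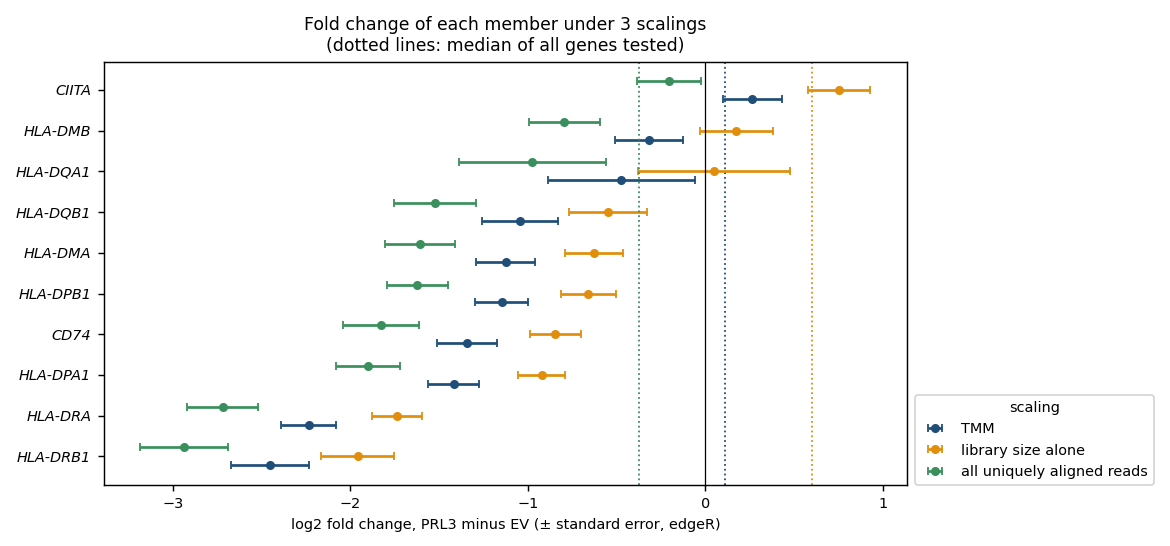
Log2 fold change (PRL3 minus EV, ± standard error from edgeR) of each gene with 3 scalings, with dotted lines at the median of all genes tested. Scaling moves all genes together, HLA-DRB1 and HLA-DRA stay lowest, and only HLA-DMB, HLA-DQA1 and CIITA change sign.

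Ratios between genes within a library do not depend on scaling, and the 9 other genes summed gave fewer reads per CIITA read in PRL3. The 9 other genes gave 17.2, 15.4 and 10.7 reads per CIITA read in EV libraries B1, B2 and B3. The ratio was 3.87, 4.35 and 4.17 in PRL3 libraries B9, B10 and B11. It was lower in all PRL3 libraries, at means of 14.4 ± 3.34 and 4.13 ± 0.24 (SD, n = 3), or 3.49-fold. CD74 and HLA-DRA held 54.9% and 21.9% of the summed reads in EV, so the ratio mostly follows them. CIITA spans 76800 bases and the other 9 genes at most 20482, so the ratio also carries any trend with gene length. The part of length was not tested, and this contrast chose the genes.

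Per CIITA read, HLA-DRA had 4.15, 3.08 and 2.32 reads in EV and 0.524, 0.570 and 0.534 in PRL3. CD74 had 8.92, 8.98 and 5.86 reads per CIITA read in EV and 2.41, 2.68 and 2.56 in PRL3. In both ratios B3 was the lowest EV library and still lay above every PRL3 library. B3 also held the largest share of EV reads on no annotated exon, 41.1%, and its part in the ratios was not tested.

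The balance among the class II genes differed as well. HLA-DRA gave 0.465, 0.343 and 0.397 reads per CD74 read in EV and 0.218, 0.213 and 0.209 in PRL3, so the PRL3 libraries were lower and close to each other. Its ratio to HLA-DPA1 was 1.88 ± 0.08 in EV and 1.07 ± 0.07 in PRL3, with no overlap. For the DR chains, HLA-DRA reads per HLA-DRB1 read were 6.35 ± 1.38 in EV and 7.22 ± 0.97 in PRL3. The libraries overlapped, which does not show that this ratio was unchanged.

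HLA-DPA1 reads per HLA-DPB1 read were 3.47 ± 0.40 in EV and 2.87 ± 0.15 in PRL3, without overlap. For the DM chains the gap was wider, with 4.99, 4.74 and 3.64 HLA-DMA reads per HLA-DMB read in EV and 2.70, 2.90 and 2.07 in PRL3. Each of these ratios describes unequal change and does not say which gene of the pair moved. Of the reads on the 9 genes, CD74 took 54.9% ± 3.22 in EV and 61.7% ± 0.43 in PRL3, while HLA-DRA took 21.9% ± 2.06 and 13.2% ± 0.36.

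**Figure D4:**
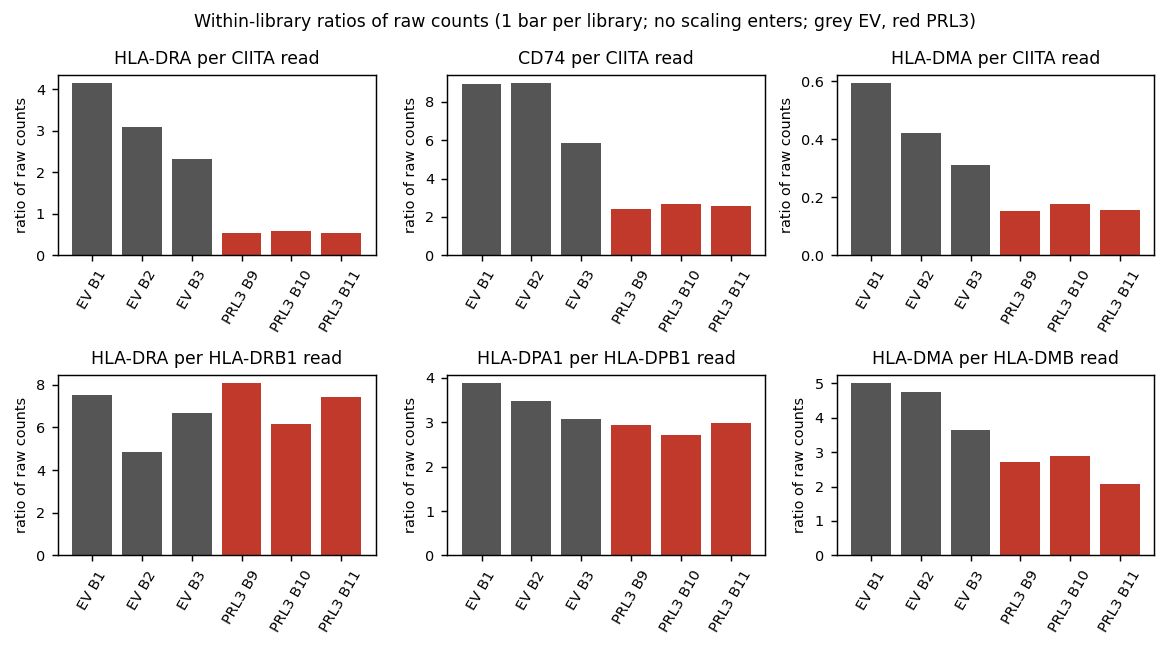
Ratios of raw counts within each library (bars from 0, grey EV, red PRL3) for 3 class II genes per CIITA read and for the chain pairs of DR, DP and DM. The ratios to CIITA, DPA1 to DPB1 and DMA to DMB are lower in all PRL3 libraries, and HLA-DRA to HLA-DRB1 overlaps.

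The remaining genes of the pathway came from 8 lists that hold 64 genes, 60 of them tested, and 25 were lower, 8 higher and 27 not called in PRL3 (edgeR's quasi-likelihood test, adjusted p of 0.05 over all genes). Beside these counts stand 31.6% lower and 15.2% higher among the protein-coding genes tested. With library size alone this turned to 15 lower and 18 higher, and with all uniquely aligned reads to 34 and 3. Of the 25 lower genes 15 were called in every alternative, and of the 8 higher genes 3.

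Among 5 other class II genes, 3 were lower and 0 were higher, beside 31.6% and 15.2% of the protein-coding genes. HLA-DRB5, a DR beta chain gene present on some haplotypes, had 559, 869.9 and 521 normalised counts in EV and 140.0, 170.4 and 122 in PRL3, a log2 fold change of -2.17 ± 0.26 (edgeR, adjusted p = 3.4e-05). Its reads per HLA-DRB1 read were 0.233 ± 0.002 in EV and 0.284 ± 0.012 in PRL3, and the similarity of both genes makes its count uncertain. The same holds for the pseudogene HLA-DRB6, at 682 ± 101 and 152 ± 48.6 normalised counts.

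HLA-DOA, the alpha chain of the DM inhibitor HLA-DO, fell by 0.82 ± 0.18 on the log2 scale (edgeR, adjusted p = 0.00224) and lost its call with library size alone (-0.32). HLA-DQA2, a close relative of HLA-DQA1, had a log2 fold change of -1.70 ± 0.51 (edgeR, adjusted p = 0.0166) at only 16 to 137 raw counts. Its call ended with library size alone (-1.21) and without EV B2 (-1.35), PRL3 B9 (-1.57) or PRL3 B11 (-1.37). HLA-DQB2 and HLA-DOB were not called, with log2 fold changes of -0.18 ± 0.56 and -0.67 ± 0.86.

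Of 8 genes for proteins that hold CIITA at the X-Y module, 2 were lower and 1 was higher, with a median log2 fold change of 0.15. These counts lie near the shares over protein-coding genes (31.6% lower, 15.2% higher), so they are no result about the list, and the genes are given singly. RFXANK, an RFX subunit without which class II genes are silent, had 3627, 5048 and 3869 normalised counts in EV and 1478, 2067 and 1551 in PRL3. It fell by 1.30 ± 0.18 on the log2 scale (edgeR, adjusted p = 0.000107), with all PRL3 libraries under EV.

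RFX5, the DNA-binding RFX subunit, fell by 0.60 ± 0.14 (edgeR, adjusted p = 0.00436), but to only -0.11 and no call with library size alone. The third RFX subunit gene, RFXAP, had a log2 fold change of 0.11 ± 0.25 and was not called. RFX5, RFXANK and RFXAP span 6687, 9641 and 9883 bases. Tested protein-coding genes over 5 kb and up to 10 kb had a median log2 fold change of -0.58. NFYC, an NF-Y subunit that binds the Y box, was higher by 0.41 ± 0.14 (edgeR, adjusted p = 0.0329). The NFYC call ended with RLE scaling (0.37) and without EV B1 (0.36), PRL3 B9 (0.44), PRL3 B10 (0.36) or PRL3 B11 (0.45), and its sign turned with all uniquely aligned reads (-0.066).

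Among 5 coactivators that CIITA recruits, 1 was lower and 1 higher, beside 31.6% and 15.2% of the protein-coding genes. Nothing is read from so small a count. CARM1, a histone arginine methyltransferase, fell by 1.41 ± 0.18 on the log2 scale (edgeR, adjusted p = 4.4e-05). CREBBP, a histone acetyltransferase, was higher by 0.66 ± 0.15 (edgeR, adjusted p = 0.00332) and not called with all uniquely aligned reads (0.18).

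Of 10 genes on the route from interferon gamma to CIITA, 2 were lower, 2 were higher and 6 were not called. Beside these stand 31.6% and 15.2% of the protein-coding genes, and so small a count says nothing of the route as a whole. IFNGR2, the signalling chain of the interferon gamma receptor, had 2961, 2888 and 2496 normalised counts in EV and 1188, 1091 and 941 in PRL3, and fell by 1.37 ± 0.16 on the log2 scale (edgeR, adjusted p = 2.9e-05). USF1, which binds the interferon-responsive promoter of CIITA, fell by 0.85 ± 0.17 (edgeR, adjusted p = 0.00122) and was not called with library size alone (-0.35). USF1 spans 6727 bases, and tested protein-coding genes over 5 kb and up to 10 kb had a median log2 fold change of -0.58.

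IRF1 and IRF2, the interferon regulatory factors that act on the same promoter, were higher by 0.51 ± 0.16 and 0.50 ± 0.15 (edgeR, adjusted p = 0.0192 and 0.0171). Neither was called with all uniquely aligned reads (0.036 and 0.022). IRF1 lost its call without PRL3 B10 (0.43) or PRL3 B11 (0.53), and IRF2 without PRL3 B9 (0.46) or PRL3 B10 (0.51). JAK1, a kinase of the receptor, had a log2 fold change of -0.11 ± 0.15 and was not called.

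Of 8 genes known for silencing CIITA, 3 were lower and 1 was higher, near the 31.6% and 15.2% of protein-coding genes. PRDM1, a repressor that shuts CIITA off in plasma cells, had 354, 378 and 824 normalised counts in EV and 2165, 1948 and 1752 in PRL3. It rose by 1.91 ± 0.28 on the log2 scale (edgeR, adjusted p = 0.000140) and was called higher in 16 of 16 alternatives. The part of PRDM1 in the levels of CIITA and the class II genes was not tested.

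HDAC1, HDAC2 and DNMT1, which deacetylate histones or methylate DNA, fell, with log2 fold changes of -0.72 ± 0.16, -0.69 ± 0.22 and -0.54 ± 0.15 (edgeR, adjusted p = 0.00276, 0.0205 and 0.0102). None of the 3 was called with library size alone (-0.22, -0.19 and -0.037). HDAC2 lost its call without EV B1 (-0.36), PRL3 B9 (-0.59) or PRL3 B10 (-0.66), and DNMT1 without PRL3 B11 (-0.50). Both also lost it with upper-quartile scaling (-0.50 for HDAC2 and -0.36 for DNMT1).

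Of 12 genes of endosomal processing and class II turnover, 8 were lower and 0 higher, where 31.6% and 15.2% of the protein-coding genes were. Their median log2 fold change was -1.15, beside 0.11 over all genes. Their spans are mixed, and by span the share of protein-coding genes that were lower ran from 49.1% (up to 5 kb) to 12.8% (over 100 kb). CTSF, a cathepsin that can trim CD74, had 1062, 1302 and 947 normalised counts in EV and 202, 241 and 233 in PRL3, a log2 fold change of -2.29 ± 0.20 (edgeR, adjusted p = 9.5e-06). CTSL, another cathepsin, had a log2 fold change of -1.26 ± 0.19 (edgeR, adjusted p = 0.000175). SPPL2A, the protease that cuts the last membrane fragment of CD74, had -1.28 ± 0.20 (edgeR, adjusted p = 0.000228).

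The lysosomal proteases CTSH, CTSD, LGMN and CTSB fell, with log2 fold changes of -1.86 ± 0.22, -1.69 ± 0.20, -1.04 ± 0.20 and -0.93 ± 0.15. Their call held in all 16 alternatives, as did those of CTSF, CTSL and SPPL2A. CTSV, at 64.6 to 157 normalised counts in EV and 36.4 to 43.9 in PRL3, fell by 1.34 ± 0.44. The CTSV call ended with library size alone (-0.84) and without EV B1 (-0.87), PRL3 B9 (-1.30), PRL3 B10 (-1.43) or PRL3 B11 (-1.29). CTSS, the main CD74 protease of B cells, had only 14 to 52 raw counts and was not called.

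Of 8 MHC class I comparators, 7 were tested, 5 were lower and 1 was higher, where 31.6% and 15.2% of the protein-coding genes were, and HLA-G was too low to test. Apart from NLRC5 these are short genes, and among protein-coding genes of up to 20 kb the share lower was 41.8% to 49.1% by span class. HLA-B and HLA-C, heavy chains that present peptides to CD8+ T cells, fell, with log2 fold changes of -2.52 ± 0.17 and -2.43 ± 0.21, as did B2M, the class I light chain, with -1.21 ± 0.18 (edgeR, adjusted p = 4.35e-06, 8.6e-06 and 0.000153). HLA-B and HLA-C share sequence with each other and with related genes, so their counts are uncertain.

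HLA-E, a class I chain read by natural killer cells, fell by 0.50 ± 0.15 (edgeR, adjusted p = 0.0162) and was not called with library size alone (-0.0063), upper-quartile scaling (-0.32), protein-coding genes only (-0.32), or without PRL3 B9 (-0.46) or PRL3 B11 (-0.43). NLRC5, the class I counterpart of CIITA, was higher by 0.51 ± 0.17 (edgeR, adjusted p = 0.0290), while CIITA had 0.27 ± 0.16. The NLRC5 call ended with all uniquely aligned reads (0.039) and without EV B1 (0.41), PRL3 B9 (0.51) or PRL3 B10 (0.43). Against B2M within each library, HLA-DRA had 0.907, 1.20 and 1.12 reads in EV and 0.628, 0.518 and 0.434 in PRL3, with no overlap, while CD74 had 2.76 ± 0.77 and 2.47 ± 0.40 and overlapped.

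Of 8 genes for proteins that meet T cells beside class II, 5 were tested, 1 was lower and 2 were higher. The shares among protein-coding genes were 31.6% and 15.2%, and nothing is read from so small a count. CD40, a receptor through which helper T cells activate presenting cells, fell by 1.00 ± 0.22 on the log2 scale (edgeR, adjusted p = 0.00274) and was not called with library size alone (-0.51). The checkpoint ligand genes CD274 and PDCD1LG2 rose by 1.42 ± 0.23 and 1.19 ± 0.25 (edgeR, adjusted p = 0.000327 and 0.00217). CD274 had 191, 144 and 220.0 normalised counts in EV and 498, 524 and 471 in PRL3, and both were called in all 16 alternatives. The costimulatory gene CD86 had 0 counts in every library and CD80 no more than 2.

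**Figure D5:**
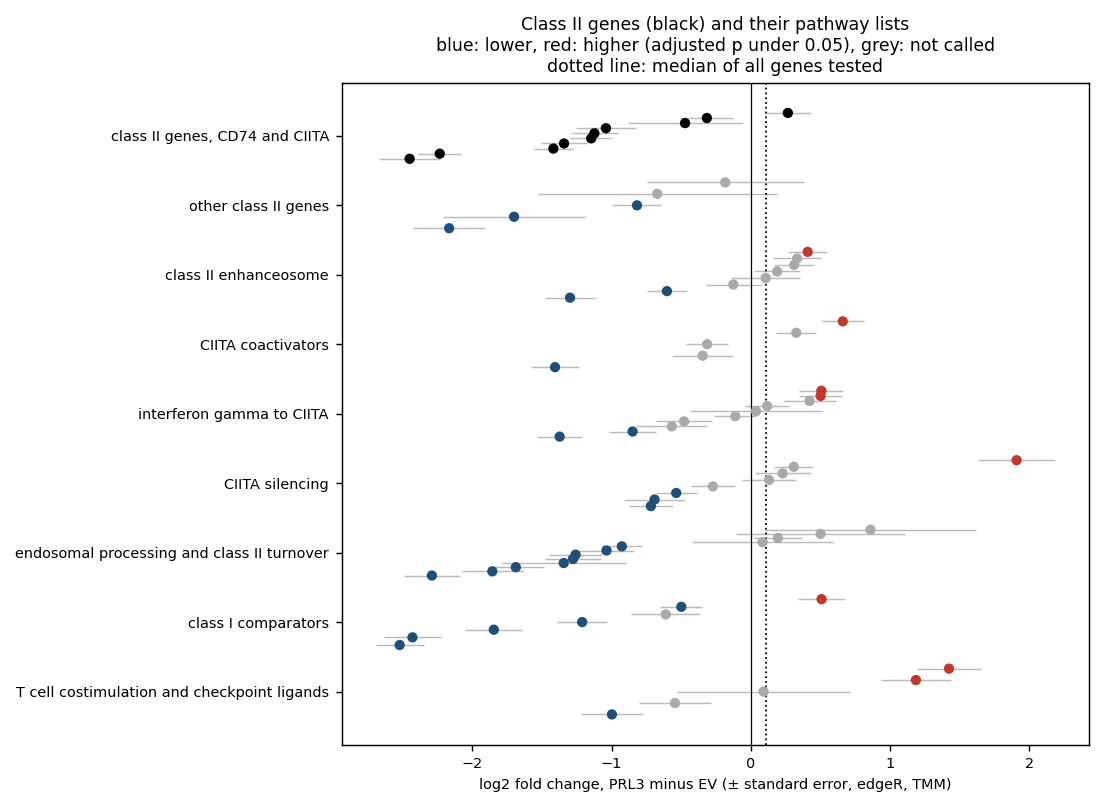
Log2 fold change (PRL3 minus EV, TMM, ± standard error from edgeR) of the 10 genes (black) and of each tested gene in the 8 pathway lists (blue lower, red higher, grey not called), with a dotted line at the median of all genes tested (0.11). In the endosomal list 8 of 12 genes are lower and in the class I list 5 of 7, beside 31.6% of the protein-coding genes tested. The regulators of CIITA and of the X-Y module lie on both sides of 0.

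Of 18 other protein-coding genes within 100 kb of the class II genes, 14 were tested, 8 were lower and 2 were higher, beside 31.6% and 15.2% of all protein-coding genes tested. The share that was higher is near the background. On chromosome 6, between the DQ and DM genes, the immunoproteasome subunit genes PSMB9 and PSMB8 and the peptide transporter gene TAP1 had log2 fold changes of -2.46 ± 0.24, -2.26 ± 0.19 and -1.93 ± 0.18 (edgeR, adjusted p = 1.3e-05, 8.6e-06 and 9.8e-06). The higher genes were BRD2, beside HLA-DMA, at 0.75 ± 0.15 and CLEC16A, beside CIITA, at 0.47 ± 0.17. BRD2 was not called with all uniquely aligned reads (0.28), and CLEC16A lost its call without EV B1 (0.37), EV B3 (0.49), PRL3 B9 (0.34) or PRL3 B10 (0.47). The CLEC16A call also ended with RLE scaling (0.43), DESeq2 (0.45) and all uniquely aligned reads (-0.0040). DEXI, which overlaps CIITA on the opposite strand, fell by 0.80 ± 0.21 and was not called with library size alone (-0.32).

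Gene length moved with the difference across all genes. Tested protein-coding genes with a span over 5 kb and up to 10 kb had a median log2 fold change of -0.58 and 47.8% were called lower, and those over 10 kb and up to 20 kb had -0.39 and 41.8%. Genes over 50 kb and up to 100 kb had -0.05 and 22.9%. HLA-DRA, HLA-DMB and HLA-DQB1 span 5169, 6400.0 and 8917 bases, and the other DR, DP and DQ genes and CD74 span 11333 to 18884. HLA-DMA spans 20482 bases and CIITA 76800.0 bases. The X-Y stretches printed for HLA-DMA and HLA-DQB1, before their RefSeq starts, lie inside the annotated spans of these genes. The spans of both, and the length class of HLA-DMA, therefore depend on the annotation. The log2 fold changes of HLA-DRA and HLA-DRB1 differed by -1.66 and -2.06 from the median of their length classes, and that of CIITA by 0.31 from its own. The other 7 differed from theirs by -1.03 (HLA-DPA1) to 0.26 (HLA-DMB). The part of length in the class II results was not tested.

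The 5 protein-coding genes whose profile over the 6 libraries was nearest to the mean profile of 9 of the 10 genes (all but HLA-DQA1, which was too low) were AARS1, TPM2, TRPC4AP, ANGPTL2 and MAGED1. Likeness was the root mean square distance of centred log2 normalised counts, from 0.028 for AARS1 to 0.047 for MAGED1 among 12062 genes. The class II genes themselves lay at 0.083 (HLA-DPB1) to 0.141 (HLA-DQB1) for the middle group of HLA-DPB1, CD74, HLA-DMA, HLA-DPA1 and HLA-DQB1. HLA-DMB, HLA-DRA, HLA-DRB1 and CIITA stood farther off, at 0.460, 0.525, 0.647 and 0.762. With 6 libraries in 2 groups, such a distance mostly reads the difference between the groups.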

How the data were processed

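Nascent RNA labelled with 4sU was sequenced in 3 EV and 3 PRL3 libraries of A375 cells. After FastQC 0.11.3 the authors ran STAR 2.5.1b against GRCh38 and deposited raw counts per gene from HTSeq 0.6.1, taken in reverse-strand mode on annotated exons of Ensembl 91, with no normalisation. Reads that overlap exons of several genes on a strand, or align to several places, were not counted on genes, which lowers values for near-identical HLA genes. Rows for reads on no gene were kept out of library sizes and tests.

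Symbols, spans and exon lengths came from GENCODE 44 on the same build (57532 of 58243 identifiers matched). In R 4.3.3, edgeR 4.0.16 was run with TMM, filterByExpr (23884 genes kept), the quasi-likelihood test of PRL3 against EV and Benjamini-Hochberg adjustment over those genes at 0.05. Standard errors were derived from the F statistic. Counts were normalised to the mean of the 6 effective library sizes, and RPKM used those sizes too. The procedure was tested on simulated data, where it missed some true changes, so a gene not called is not shown to be unchanged. Groups share no replicate numbers, so no pairing was assumed. No pair of libraries agreed within counting noise (chi-square over genes, lowest mean 25.1), as a library deposited a second time would. Separate preparations of 1 culture would differ too, so whether the cultures were independent is not known from this. Every library entered as 1 sample, and p-values measure only the spread between libraries.

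The 10 genes, the pathway and marker lists, the neighbours within 100 kb and the 5 most alike genes (mean of at least 100 normalised counts, protein-coding) were set as rules for naming genes, all chosen with earlier results of these data known. Some genes of the lists enter the counts and are not reported here by name. Alternatives were scaling by RLE, upper quartile or library size alone, all uniquely aligned reads as library size, DESeq2 1.42.0, limma-voom (limma 3.58.1), no filter beyond 1 count, at least 10 counts in every library, protein-coding genes only, an adjusted p of 0.01, each library left out, and for levels the longest transcript as length.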

Additional observations from a re-analysis of the deposited data

Results flagged for a closer look

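Reads outside the gene counts differed between the groups. Uniquely aligned reads on no annotated exon of the counted strand were 66.3% ± 3.18 (SD, n = 3) of all that aligned uniquely in PRL3 and 33.3% ± 6.75 in EV, and the groups did not overlap (62.8% to 69.1% against 28.7% to 41.1%). These reads enter no comparison of the class II genes except as library size, where they move the median log2 fold change of the 10 genes from -1.14 to -1.61. Their origin was not tested.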

How the results depend on the processing

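The 7 class II genes called lower, HLA-DRA, HLA-DRB1, HLA-DPA1, HLA-DPB1, HLA-DQB1, HLA-DMA and CD74, were called lower in every alternative run, which describes the processing and is no support, since this contrast chose them, while the calls of HLA-DMB and CIITA depended on the scaling, and that of CIITA also on the set of genes fitted. With library size alone there were 3078 genes lower and 9514 higher among all genes, 15 lower and 18 higher among the pathway genes, 1 class II gene higher (CIITA), and a median of -0.64 over the 10 genes. With all uniquely aligned reads there were 8525 lower and 1912 higher genes, 3 higher pathway genes and a median of -1.61. These shifts follow from the scaling, which moves all genes together. The 8 higher pathway genes became 13 with upper-quartile scaling, 13 with protein-coding genes only and 4 at an adjusted p of 0.01, where 2719 genes were higher overall. With protein-coding genes only, 1 class II gene, CIITA, was higher. NFYC and CLEC16A turned to -0.066 and -0.0040 with all uniquely aligned reads, and TAP2 to 0.022 with library size alone, where none was called. When single libraries were left out, the class II genes stayed at 7 lower and 0 higher with a median of -1.20 to -1.08. The pathway genes ranged from 21 to 27 lower and from 4 (without PRL3 B10) to 9 higher, and all genes from 4306 to 5869 lower and 3200.0 to 5940.0 higher. For shifts other than those of scaling the cause was not tested. No paired analysis was possible because EV and PRL3 libraries carry different numbers. HLA-DQA1, at 64 to 100 counts in EV libraries, had the widest standard error of the 10 genes, 0.41.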
